A study of Mus musculus with 18 samples.

Results

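The difference between WT and *Sh3gl1*-/- follicular B cells in their transcriptional response to CD40L was measured as an interaction. The log2 change from untreated to CD40L-treated cells in WT mice was subtracted from the same change in *Sh3gl1*-/- mice. A value above 0 means that the *Sh3gl1*-/- response was the more positive one, and a value below 0 that it was the more negative one. The same number is also the genotype difference after CD40L minus the genotype difference before it. It was fitted on 12 of the 18 libraries of the series, 3 for each of 4 groups, and described by gene families and pathways from 61 lists.

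The groups were follicular B cells of WT mice and of *Sh3gl1*-/- mice, each sorted by flow cytometry and either used untreated or cultured with CD40L. The time in culture is 14 h by the labels, but the study's text calls it overnight in one place and gives a longer time in another, so it is not certain. The mice were littermates on a C57BL/6 background. The knockout is a constitutive one, so that all cells of the *Sh3gl1*-/- mice lacked the gene and not the B cells alone. No cells cultured without CD40L entered the comparison, and the effect of CD40L cannot be told apart from that of culture. The 12 libraries held between 12415851 and 18366011 expected counts.

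CD40 is a receptor of the TNF receptor family on B cells, and its ligand CD40L is displayed by helper T cells. Its engagement activates NF-kB, drives the resting follicular cell to grow, to make ribosomes and proteins, and to enter the cell cycle. *Sh3gl1* encodes endophilin A2, a BAR-domain protein that bends membranes during endocytosis. The comparison asks whether the B cell response to this form of T cell help runs differently without endophilin A2.

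*Sh3gl1* (ENSMUSG00000003200, GRCm38 chromosome 17, 56016750 to 56036635) had 33.5 to 35.2 CPM (counts scaled to library size) in untreated WT libraries and 52.4 to 56.7 CPM in cultured WT libraries. In the *Sh3gl1*-/- libraries it had 0.0719 to 0.19 CPM untreated and 0.682 to 1.75 CPM cultured. The untreated knockout libraries held at most 3 counts, so no fold is given for them. *Cd40* and *Cd80*, which encodes a T cell costimulatory ligand, rose with CD40L in both genotypes, and their differences in response were -0.21 (SE 0.15) and -0.67 (SE 0.64), with adjusted p = 0.72 and 0.81 in edgeR.

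The B cell markers summed to between 25300 and 28800 CPM in the untreated libraries and between 18400 and 20300 CPM in the cultured ones, with no defining marker at 0. Markers of other cells were less abundant after culture. The 14 neutrophil markers summed to 82.8 to 199 CPM in untreated WT and 203 to 901 CPM in untreated *Sh3gl1*-/- libraries, and to 9.47 to 41.4 and 56.9 to 204 CPM after culture. The 14 T cell markers summed to 270 to 325 and 403 to 511 CPM untreated, and to 88.9 to 121 and 125 to 141 CPM cultured. Erythroid and platelet markers summed to 1500 to 4090 CPM in untreated WT and 3100 to 9470 CPM in untreated *Sh3gl1*-/- libraries, against 43 to 394 and 42.1 to 133 CPM after culture. Monocyte, macrophage and dendritic markers summed to 132 to 177 and 141 to 335 CPM untreated and to 57.9 to 87.2 and 45.9 to 71.5 CPM cultured, and NK cell markers to 53.5 to 121, 87.3 to 126, 6.89 to 8.88 and 5.31 to 9.43 CPM. Of the 16 macrophage markers 6 were at 0 in all cultured WT libraries and 2 in all cultured *Sh3gl1*-/- libraries. A fit with the neutrophil level as a covariate, added after the data had been seen, left the number of calls at 0, the ribosomal protein median at -0.38 and the cholesterol median at 0.39. The neutrophil markers had a median genotype difference of 1.9995 in untreated and 2.0793 in cultured cells. The covariate was a log2 level, and one that differs by about as much at both times hardly varies with the difference in response. This fit therefore cannot decide what part other cells had in the results. It does not follow that RNA from such cells cancels, since their summed CPM, given above, were not alike in the 4 groups. Erythroid and platelet markers, with median genotype differences of 1.06 untreated and -0.32 cultured, were not in the fit. The part of the other markers in the results was not tested. In such bulk samples fewer cells of a type and less RNA per cell cannot be told apart.

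Of 14460 genes tested, 0 differed in response (0%) by edgeR's quasi-likelihood test at an adjusted p below 0.05, and the smallest adjusted p was 0.311. limma-voom also called 0 genes, whereas DESeq2 called 37, of which 21 were higher and 16 lower. At an unadjusted p under 0.05, 640 genes had a more positive response in *Sh3gl1*-/- cells (4.43% of those tested) and 638 a more negative one (4.41%), or 8.84% in all. For comparison, the response itself was called in WT cells for 3414 genes upwards (23.6%) and 3712 downwards (25.7%), and in *Sh3gl1*-/- cells for 2985 (20.6%) and 3146 (21.8%). The genotypes differed in 24 genes upwards (0.166%) and 12 downwards (0.083%) when untreated, and in 29 (0.201%) and 14 (0.0968%) after CD40L. These are the shares against which the members of each list are counted below, and members counted in this way are called higher or lower without being significant one by one. The median difference over all genes was 0.0055 and the median standard error 0.315, so that differences of the size seen in most lists are below what 1 gene can show here. The biological coefficient of variation estimated by edgeR was 21.8%.

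Ribosomal protein genes gave the most uniform difference of any list. Their messages rose with CD40L in both genotypes, with a median log2 response of 0.69 in WT cells and 0.34 in *Sh3gl1*-/- cells. The median difference in response over the 90 cytosolic ribosomal protein genes was -0.36, and 88 of the 90 were below 0. At an unadjusted p under 0.05, 60 were lower (66.7%, against 4.41% of all genes) and 1 was higher. The large subunit had 35 lower of 51 tested and the small subunit 24 of 38, with medians of -0.36 and -0.36.

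The genotypes were further apart before CD40L than after it. In untreated cells the list stood 0.26 higher in *Sh3gl1*-/- than in WT cells, and after CD40L its median genotype difference was -0.11. The median over members of log2 CPM, relative to the untreated WT mean, was -0.06, -0.06 and 0.10 in the 3 untreated WT libraries and 0.27, 0.11 and 0.38 in the untreated *Sh3gl1*-/- libraries. After culture it was 0.77, 0.55 and 0.74 in WT and 0.68, 0.61 and 0.52 in *Sh3gl1*-/- libraries. The untreated groups did not overlap, and the cultured groups did. The list median ran from -0.43 to -0.30 over the 12 fits that each omitted 1 library, while the number of lower members ranged from 26 without untreated *Sh3gl1*-/- replicate 3 to 67 without untreated *Sh3gl1*-/- replicate 2. It was 31 and 35 without untreated WT replicates 1 and 2, 39 without cultured WT replicate 1 and 37 without cultured *Sh3gl1*-/- replicate 3. Many of these genes have processed copies elsewhere in the genome, among which RSEM divides reads, so the level of 1 gene is uncertain.

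*Rpl35a*, a protein of the large subunit, had 370, 385 and 406 CPM in untreated WT and 469, 419 and 526 CPM in untreated *Sh3gl1*-/- libraries. After CD40L it had 656, 550 and 634 CPM in WT and 533, 530 and 472 CPM in *Sh3gl1*-/- libraries. The WT libraries were thus the lower ones before culture and the higher ones after it, without overlap at either time. Its difference in response was -0.55 (SE 0.15, adjusted p = 0.465, edgeR). *Rps27a*, whose product is made as a fusion with ubiquitin, had a difference of -0.49 (SE 0.13) and *Rpl7a* of -0.44 (SE 0.12), each with adjusted p = 0.465 in edgeR. Both rose with CD40L in both genotypes. The exception among the lower members was *Rpl13*, which was higher by 1.11 (SE 0.42, adjusted p = 0.499, edgeR). It had 179 CPM in untreated WT replicate 1 against 89.6 and 91.2 CPM in the other untreated WT libraries.

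**Figure D1:**
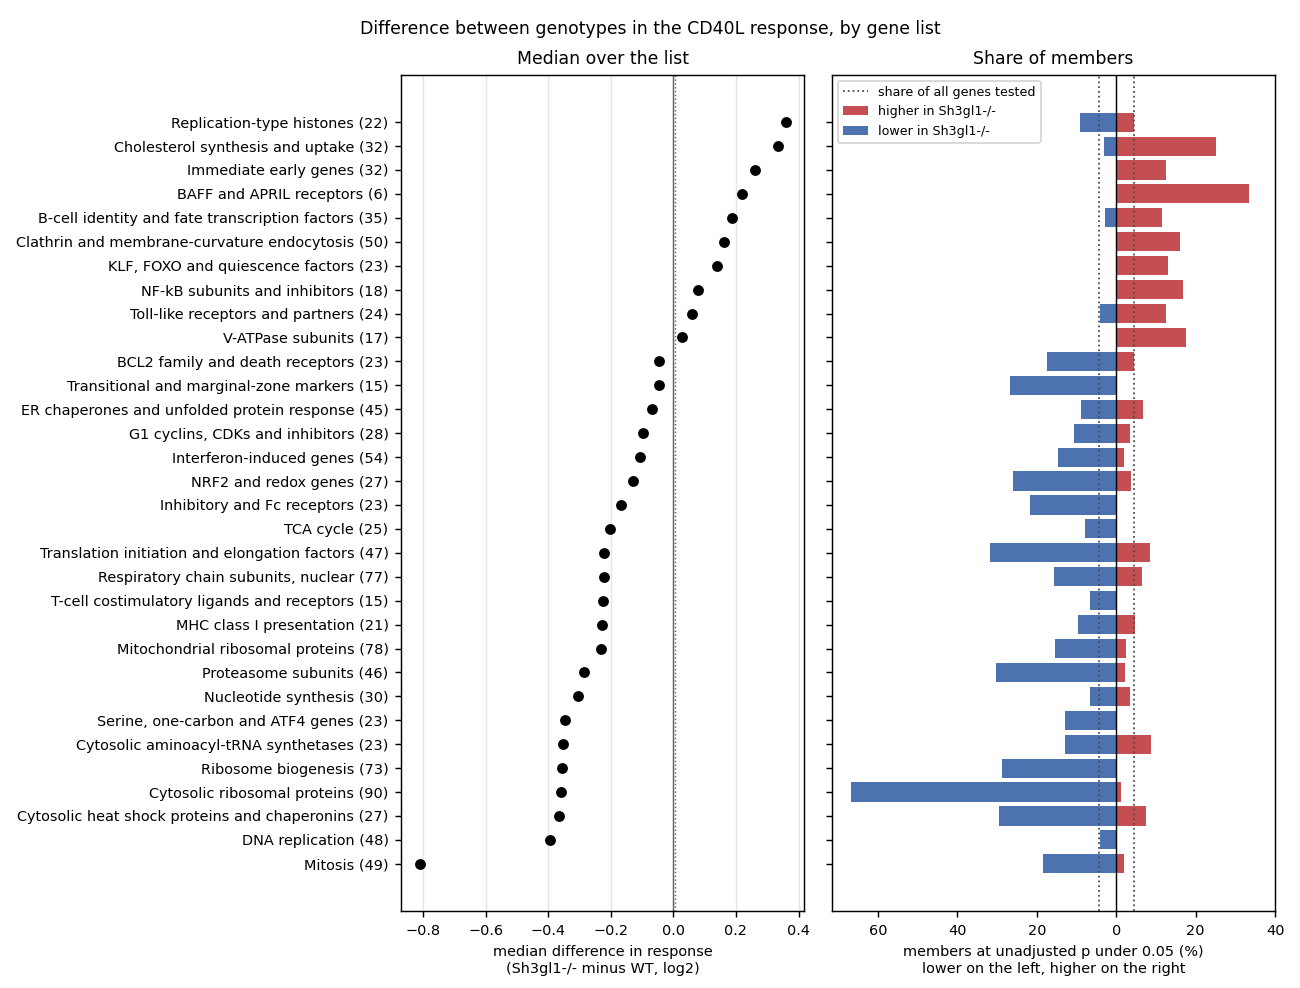
Difference in the CD40L response between genotypes for 32 gene lists that are described one by one, with the number of genes tested in parentheses. The left panel plots the median difference (log2, *Sh3gl1*-/- minus WT), from -0.81 for mitosis to 0.36 for histones. The right panel plots the percentage of members at an unadjusted p under 0.05, lower to the left in blue and higher to the right in red, and dotted lines mark 4.41% and 4.43%, the shares of all genes tested. Cytosolic ribosomal proteins reach 66.7% on the lower side.

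Messages for these proteins often begin with a run of pyrimidines, the 5' terminal tract through which their translation is coupled to growth signals. The stretch around the annotated start of *Rpl35a* is shown as an example because this gene had the lowest p of the list. It lies at GRCm38.p6 chr16:33056472-33056501 on the plus strand, from 10 bases before the start to 20 bases after it, and capitals mark the unbroken run of C and T.

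Rpl35a: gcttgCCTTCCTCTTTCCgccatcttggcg

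A run of at least 6 bases of C or T beginning within 5 bases of the start was searched for. It was present for 24 of the 64 ribosomal protein genes with a RefSeq promoter, and for 1398 of 9615 tested genes with one (14.5%). Only 64 of the 90 ribosomal protein genes had an entry, under 80%, so this check is void for the list as a whole.

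Genes that build the ribosome, rather than form it, differed mainly after culture. The 73 ribosome biogenesis genes rose by a median of 1.01 in WT and 0.72 in *Sh3gl1*-/- cells, with a median difference of -0.36. At an unadjusted p under 0.05, 21 were lower (28.8%) and 0 higher, and 67 of 73 lay below 0. Untreated cells differed by a median of 0.07 between the genotypes and cultured cells by -0.31. The 3 cultured WT libraries stood at 0.73, 1.11 and 1.29 above the untreated WT mean, and the cultured *Sh3gl1*-/- libraries at 0.77, 0.54 and 0.88. WT replicate 1 lay within the range of the *Sh3gl1*-/- libraries, and the other WT libraries above it. Without cultured WT replicate 3 the lower members fell to 8 and the median to -0.21, and without cultured WT replicate 1 they numbered 41 with a median of -0.45. They numbered 9 without untreated WT replicate 1, 12 without untreated *Sh3gl1*-/- replicate 3 and 11 without cultured *Sh3gl1*-/- replicate 2.

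*Nop16* had 238, 227 and 301 CPM in cultured WT and 211, 173 and 197 CPM in cultured *Sh3gl1*-/- libraries, from 69.3 to 72.5 and 75.5 to 80.4 CPM untreated. Its difference was -0.54 (SE 0.17, adjusted p = 0.465, edgeR). *Nhp2*, a core protein of the particles that pseudouridylate ribosomal RNA, had a difference of -0.53 (SE 0.17), and *Nop58*, a core protein of those that methylate it, of -0.57 (SE 0.18), both with adjusted p = 0.465 in edgeR. In each of these 3 genes all cultured *Sh3gl1*-/- libraries were below all cultured WT libraries. They were named for a low p of this same difference, so their separation is not separate support. No share of all genes separated in this way is given. *Nol8*, a nucleolar protein, had a difference of -0.47 (SE 0.14, adjusted p = 0.465, edgeR).

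The translation machinery showed the same direction with more exceptions. Of 47 initiation and elongation factors, 15 were lower (31.9%) and 4 higher (8.51%), with a median difference of -0.22. All 6 elongation factors lay below 0, with a median of -0.41, and 3 of them were lower. *Eef1d* had 321, 324 and 448 CPM in cultured WT and 284, 241 and 270 CPM in cultured *Sh3gl1*-/- libraries, with a difference of -0.62 (SE 0.18, adjusted p = 0.465, edgeR). *Eif4e*, which binds the cap of messenger RNA, had a difference of -0.48 (SE 0.15, adjusted p = 0.465, edgeR). Its partner *Eif4g1* went the other way, with 0.69 (SE 0.22, adjusted p = 0.465, edgeR), and so did *Eif4ebp1*, an inhibitor of *Eif4e*, with 1.72 (SE 0.57, adjusted p = 0.47, edgeR). *Eif4g1* had 83.3 CPM and *Eif4ebp1* 10.7 CPM in untreated WT replicate 1, against 57.3 to 60.9 and 4.15 to 4.8 CPM in the other untreated WT libraries. Without that replicate the list had 5 lower and 2 higher members, and without cultured WT replicate 1 it had 20 lower members. It had 9 and 7 without untreated *Sh3gl1*-/- replicates 1 and 3, 6 without cultured WT replicate 3 and 7 without cultured *Sh3gl1*-/- replicate 2.

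Of 23 cytosolic aminoacyl-tRNA synthetases and their scaffold proteins, 21 lay below 0, with a median of -0.35, though only 3 were lower and 2 higher at an unadjusted p under 0.05. Without cultured WT replicate 1 there were 13 lower members, and without cultured *Sh3gl1*-/- replicates 1 and 3 there were 5 and 6. The scaffold genes *Eef1e1* and *Aimp1* had differences of -0.55 (SE 0.16) and -0.45 (SE 0.16), whereas *Vars*, the valyl-tRNA synthetase, had 1.75 (SE 0.53), with adjusted p = 0.465, 0.472 and 0.465 in edgeR. *Vars* had 35.5 CPM in untreated WT replicate 1 and 13 to 15 CPM in the other untreated WT libraries.

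**Figure D2:**
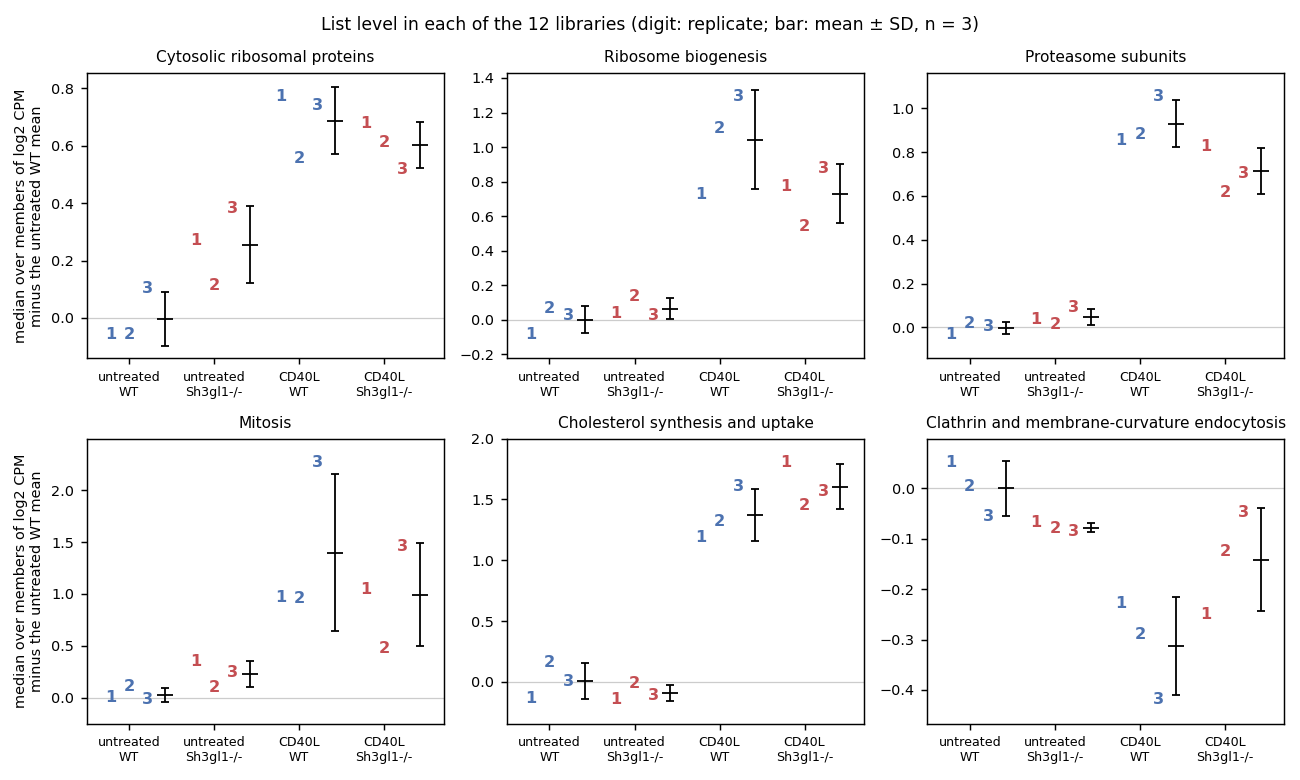
Level of 6 gene lists in each of the 12 libraries, as the median over members of log2 CPM minus the untreated WT mean. Digits give the replicate number, blue for WT and red for *Sh3gl1*-/-, and bars the mean ± SD of 3 libraries. The genotypes do not overlap for ribosomal proteins before CD40L and for the proteasome after it, they overlap after it for ribosome biogenesis and cholesterol genes, and cultured WT replicate 3 stands at 2.27 for mitosis.

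The proteasome, which degrades ubiquitinated proteins and supplies peptides to MHC class I, rose with CD40L by a median of 0.94 in WT and 0.69 in *Sh3gl1*-/- cells. Of 46 subunits and assembly factors 14 were lower (30.4%) and 1 was higher, with a median difference of -0.29 and 41 below 0. Of the 14 constitutive subunits of the 20S core 8 were lower, with a median of -0.34. Of the regulatory particle, 1 of 6 ATPases and 1 of 14 other subunits were lower, and of the PA28 activator 2 of 3. The list stood at 0.85, 0.88 and 1.05 in the cultured WT libraries and at 0.83, 0.62 and 0.70 in the cultured *Sh3gl1*-/- libraries, without overlap. Its median ranged from -0.31 to -0.20 over the libraries left out, and the lower members from 9 without untreated *Sh3gl1*-/- replicate 3 to 19 without cultured *Sh3gl1*-/- replicate 1.

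*Psmb10* (ENSMUSG00000031897, chromosome 8, 105935735 to 105938444), an inducible catalytic subunit of the immunoproteasome, had 138, 142 and 137 CPM in cultured WT libraries. It had 110, 98.9 and 104 CPM in cultured *Sh3gl1*-/- libraries, all below WT, while untreated *Sh3gl1*-/- libraries (159, 159 and 177 CPM) were all above untreated WT libraries (147, 156 and 143 CPM). It fell with CD40L in *Sh3gl1*-/- cells by 0.66 on the log2 scale (adjusted p = 6.3e-05, edgeR) and had a change of -0.10 in WT cells (adjusted p = 0.402, edgeR). The difference was -0.56 (SE 0.13, adjusted p = 0.465, edgeR), with an adjusted p of 0.00435 in DESeq2. *Psme2*, a subunit of the PA28 activator that is induced by interferon, rose to 1374, 1238 and 1373 CPM in WT but to 1078, 1030 and 937 CPM in *Sh3gl1*-/- libraries, from 300 to 323 and 312 to 378 CPM. Its difference was -0.56 (SE 0.13, adjusted p = 0.465 in edgeR and 0.0314 in DESeq2).

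Chaperones differed in the same direction. Of 27 cytosolic heat shock proteins and chaperonins 8 were lower (29.6%) and 2 higher, with a median of -0.37. The CCT chaperonin ring, which folds actin and tubulin, had 3 of 8 lower, and *Hsp90* genes with their cochaperones 3 of 5. *Hsp90aa1* had 1071, 1015 and 1461 CPM in cultured WT and 959, 903 and 804 CPM in cultured *Sh3gl1*-/- libraries, a difference of -0.47 (SE 0.18, adjusted p = 0.499, edgeR). *Hspe1*, the mitochondrial cochaperonin, had -0.46 (SE 0.18, adjusted p = 0.511, edgeR). The factor that switches these genes on, *Hsf1*, was among the higher members, with 0.88 (SE 0.33, adjusted p = 0.503, edgeR). The list had 0 lower members without cultured WT replicate 3 and 15 without cultured WT replicate 1. It had 3 to 5 without untreated WT replicate 1 or 2, untreated *Sh3gl1*-/- replicate 2 or 3 or cultured *Sh3gl1*-/- replicate 2. In the 45 ER chaperones and genes of the unfolded protein response, 4 were lower and 3 higher with a median of -0.07, with 1 to 4 lower over the libraries left out, and *Hspa5*, the ER chaperone BiP, had -0.47 (SE 0.17, adjusted p = 0.499, edgeR).

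Mitochondrial genes encoded in the nucleus gave smaller differences. Of 78 mitochondrial ribosomal proteins 12 were lower (15.4%) and 2 higher, with a median of -0.23 and 67 below 0. Of 77 respiratory chain subunits 12 were lower (15.6%) and 5 higher (6.49%), with a median of -0.22, and 7 of the 12 belonged to ATP synthase, where 17 subunits were tested. The 13 subunits that the mitochondrial genome encodes had a median of 0.12 and 1 lower member. *Atp5g1*, which encodes the ring subunit of ATP synthase, had 368, 362 and 417 CPM in cultured WT and 317, 306 and 286 CPM in cultured *Sh3gl1*-/- libraries, with a difference of -0.34 (SE 0.14, adjusted p = 0.54, edgeR). *Mrpl17* had -0.57 (SE 0.17) and *Mrps11* -0.54 (SE 0.17), both with adjusted p = 0.465 in edgeR. The respiratory chain list had 0 lower members without untreated WT replicate 2 or untreated *Sh3gl1*-/- replicate 3 and 19 without untreated *Sh3gl1*-/- replicate 2, and its count moved by over 1.5 times when any library but cultured WT replicate 2 or cultured *Sh3gl1*-/- replicate 1 was left out. For the mitochondrial ribosome the count ran from 6 without untreated or cultured *Sh3gl1*-/- replicate 3 to 18 without cultured WT replicate 2, and was 7 without cultured WT replicate 3 or cultured *Sh3gl1*-/- replicate 2.

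Some higher members of these lists stood out in the same library. *Cox5b* (1.05, SE 0.34), *Atp5d* (1.01, SE 0.42) and *Mrpl54* (1.14, SE 0.43) had 76.8, 49.9 and 29.8 CPM in untreated WT replicate 1, above the other untreated WT libraries at 39.6 to 40.5, 24.5 to 27.4 and 13.7 to 15.3 CPM. Their adjusted p-values in edgeR were 0.465, 0.523 and 0.502, and without that replicate their differences were still 0.68, 0.65 and 0.73. Without that replicate the whole table held 479 higher genes in place of 640 and 405 lower genes in place of 638. The transcripts of higher genes had a median GC content of 51.7%, against 49.1% for lower genes and 49.4% for all genes. Their median lengths were 1375, 882 and 1330 bases. After removal of a trend on length or on GC content the ribosomal protein median was -0.32 or -0.39 and the cholesterol median 0.34 or 0.32. These trends were added after the data had been seen.

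Enzymes of intermediary metabolism had few members past the unadjusted level. Of 25 TCA cycle genes 22 lay below 0 with a median of -0.20, and *Dld*, a subunit shared by the ketoacid dehydrogenases, had -0.48 (SE 0.16, adjusted p = 0.465, edgeR). The 23 serine, one-carbon and ATF4 target genes had a median of -0.35, with 3 lower members, but the level of the list went the other way. Its median response was 0.754 in WT and 1.298 in *Sh3gl1*-/- cells, and its level stood at 0.888, 0.868 and 0.999 in cultured WT libraries and 1.189, 1.019 and 1.223 in cultured *Sh3gl1*-/- libraries, all above WT. The difference between the responses of these levels was 0.18. There were 0 lower members without cultured WT replicate 3, 6 and 5 without cultured WT replicate 1 and cultured *Sh3gl1*-/- replicate 3, and 1 without untreated WT replicate 1, untreated *Sh3gl1*-/- replicate 3 or cultured *Sh3gl1*-/- replicate 2. *Phgdh*, the entry enzyme of serine synthesis, had 218, 307 and 385 CPM in cultured WT and 204, 176 and 214 CPM in cultured *Sh3gl1*-/- libraries, a difference of -0.60 (SE 0.23, adjusted p = 0.511, edgeR). The 30 nucleotide synthesis genes had a median of -0.30, which became -0.10 without cultured WT replicate 3, and 2 lower members, which became 12 without cultured WT replicate 1. Among them *Nme1*, a nucleoside diphosphate kinase, rose to 609, 635 and 732 CPM in WT but to 568, 479 and 487 CPM in *Sh3gl1*-/- libraries, from 186 to 191 and 207 to 231 CPM. Its difference was -0.56 (SE 0.14, adjusted p = 0.465 in edgeR and 0.0426 in DESeq2), and reads of *Nme1* can be shared with an overlapping gene model on the same strand. The 26 glycolysis genes had a median of -0.18 with 2 lower members.

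Genes of redox defence under NRF2 were counted separately. Of 27 tested, 7 were lower (25.9%) and 1 was higher, with a median of -0.13, and 4 were lower without untreated *Sh3gl1*-/- replicate 3, cultured WT replicate 1 or cultured *Sh3gl1*-/- replicate 3. *Nfe2l2*, which encodes NRF2 itself, had 147, 145 and 133 CPM in untreated *Sh3gl1*-/- libraries against 91.5, 98.2 and 97.6 CPM in untreated WT libraries, and 67.1 to 80.8 against 63.6 to 75.6 CPM after culture. It fell in both genotypes, and the difference was -0.46 (SE 0.15, adjusted p = 0.47, edgeR). *Sod1*, the cytosolic superoxide dismutase, had -0.47 (SE 0.16, adjusted p = 0.472, edgeR), and *Sod2*, the mitochondrial one, 0.46 (SE 0.18, adjusted p = 0.511, edgeR).

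The mitosis and DNA replication lists differed between mice of one genotype as well as between genotypes. Over 49 mitosis genes the median difference was -0.81, with 45 below 0 and 9 lower (18.4%), and over 48 DNA replication genes it was -0.39, with 45 below 0 and 2 lower. The mitosis list stood at 0.96, 0.96 and 2.27 in the cultured WT libraries and at 1.04, 0.47 and 1.46 in the cultured *Sh3gl1*-/- libraries, so that WT replicate 3 was above all others and the other WT libraries lay within the *Sh3gl1*-/- range. Without that replicate the mitosis median was -0.16 with 1 lower member, and the replication median -0.09. Without cultured WT replicate 1 there were 16 and 17 lower members in the 2 lists. *Top2a*, the topoisomerase of dividing cells, had 66.8, 83.9 and 209 CPM in cultured WT and 65.8, 42.6 and 90.8 CPM in cultured *Sh3gl1*-/- libraries, with a difference of -1.23 (SE 0.51, adjusted p = 0.526, edgeR). *Ube2c* and *Birc5* had -1.92 (SE 0.60) and -1.66 (SE 0.62), with adjusted p = 0.465 and 0.499 in edgeR. *Ckap5*, which stabilises spindle microtubules, rose in WT cells from 57.6 to 58.6 CPM up to 78.5, 97.3 and 111 CPM, while *Sh3gl1*-/- libraries had 72.9 to 78.3 CPM before and 70.4 to 82.1 CPM after CD40L. Its difference was -0.72 (SE 0.17, adjusted p = 0.465 in edgeR and 0.0329 in DESeq2).

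The repressors of the E2F programme *E2f7* and *E2f8* had differences of -2.80 (SE 0.93) and -3.88 (SE 1.39), with adjusted p = 0.472 and 0.484 in edgeR, at levels of at most 7.55 CPM. *E2f8* was at 0 in 2 untreated WT libraries, so the size of its difference depends on the prior count. The 28 G1 cyclins, CDKs and inhibitors had 3 lower and 1 higher members and a median of -0.10, which turned to 0.06 without cultured WT replicate 3. The 22 replication-type histones had a median of 0.36 with 2 lower and 1 higher members. Histone messages lack a poly(A) tail in dividing cells, and these libraries were made from poly(A) RNA.

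Cholesterol synthesis was the clearest group with a larger response in *Sh3gl1*-/- cells. It rose by a median of 1.32 in WT and 1.901 in *Sh3gl1*-/- cells, and the median difference over 32 genes was 0.33, with 27 above 0. At an unadjusted p under 0.05, 8 were higher (25%, against 4.43% of all genes) and 1 was lower. The 20 enzymes from acetoacetyl-CoA to cholesterol had a median of 0.49, 19 of them above 0 and 6 higher. The median genotype difference over the list was -0.12 in untreated and 0.31 in cultured cells. The list stood at 1.19, 1.32 and 1.60 in cultured WT libraries and 1.81, 1.45 and 1.56 in cultured *Sh3gl1*-/- libraries, which overlapped in 1 WT library. Its median lay between 0.26 and 0.50 over the fits that omitted 1 library, and the higher members between 5 without untreated *Sh3gl1*-/- replicate 1 and 11 without untreated WT replicate 1.

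*Srebf2* (ENSMUSG00000022463, chromosome 15, 82147181 to 82205379) encodes SREBP-2, the transcription factor that turns on these enzymes and its own gene when sterols are low. It had 68.2, 62.4 and 51.8 CPM in untreated WT and 44.5, 47.4 and 46.7 CPM in untreated *Sh3gl1*-/- libraries. After CD40L it had 90.3, 98.6 and 72.7 CPM in WT and 109, 146 and 149 CPM in *Sh3gl1*-/- libraries. The *Sh3gl1*-/- libraries were all below WT before culture and all above WT after it. *Srebf2* rose in both genotypes, by 0.52 in WT and 1.54 in *Sh3gl1*-/- cells, and the difference was 1.02 (SE 0.21, adjusted p = 0.322 in edgeR and 0.00742 in DESeq2).

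*Msmo1*, a sterol demethylase, had 309, 348 and 318 CPM in cultured WT and 476, 420 and 433 CPM in cultured *Sh3gl1*-/- libraries, from 69.2, 95.7 and 90.3 and from 64.1, 70.1 and 70.7 CPM. Its difference was 0.76 (SE 0.17, adjusted p = 0.455 in edgeR and 0.0388 in DESeq2), and the cultured groups did not overlap. *Fdft1*, the squalene synthase, had a difference of 0.76 (SE 0.21) and *Cyp51*, the lanosterol demethylase, of 0.83 (SE 0.29), with adjusted p = 0.465 and 0.476 in edgeR. In these 2 genes the cultured groups overlapped. *Insig1*, which holds SREBP in the ER when sterols are high, had 0.65 (SE 0.26), at unadjusted p = 0.0251 in edgeR. *Srebf1* had 0.17 (SE 0.30) and *Scap*, which escorts SREBP out of the ER, 0.17 (SE 0.27). These last 3 genes were picked after their values had been seen, for their part in the pathway, as were *Hmgcs1*, *Abca1*, *Mylip*, *Cltc* and *Dnm2* below.

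The lower member of the list was *Abcg1* (ENSMUSG00000024030, chromosome 17, 31057675 to 31117988), a transporter that exports cholesterol from the cell. It had 269, 229 and 194 CPM in untreated WT and 345, 286 and 317 CPM in untreated *Sh3gl1*-/- libraries. After CD40L it fell to 14.1, 11.7 and 9.05 CPM in WT and to 7.65, 6.29 and 6.39 CPM in *Sh3gl1*-/- libraries. The genotypes did not overlap at either time, and the order was turned around by culture. The log2 response was -4.31 in WT and -5.54 in *Sh3gl1*-/- cells, and the difference was -1.23 (SE 0.23, adjusted p = 0.311 in edgeR and 0.000824 in DESeq2). The other efflux transporter *Abca1* had -0.38 (SE 0.72) and *Mylip*, a ubiquitin ligase of the same sterol-sensing pathway, 0.16 (SE 0.21).

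SREBP-2 binds sterol regulatory elements, whose core was searched here as TCACNCCA on both strands of the RefSeq promoters, from 250 bases before to 50 bases after the start. The 3 stretches below, of 30 bases each on the strand of the gene, are shown because they stand before *Srebf2*, *Msmo1* and *Hmgcs1*, of which the first pair had the lowest p on the higher side of the list. They lie at GRCm38.p6 chr15:82147096-82147125, plus strand, chr8:64733737-64733766, minus strand, and chr13:119690203-119690232, plus strand, upstream of the annotated starts. Capitals mark the match.

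Srebf2: atgacgcaccaTCACCCCAtgagccgcttc

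Msmo1: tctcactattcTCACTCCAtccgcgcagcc

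Hmgcs1: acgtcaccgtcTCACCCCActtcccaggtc

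The core was present in 3 of the 23 genes of the list that had a promoter entry. Of the 9615 tested genes with an entry, 4.5% had it. The longer form TCACNCCAC was present in 1 of the 23 and in 1.3% of those 9615 genes. The shorter form was chosen after these sequences had been seen. With 23 of 32 genes matched, under 80%, the check is void for the list. A match is a description of letters, and no binding was measured.

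**Figure D3:**
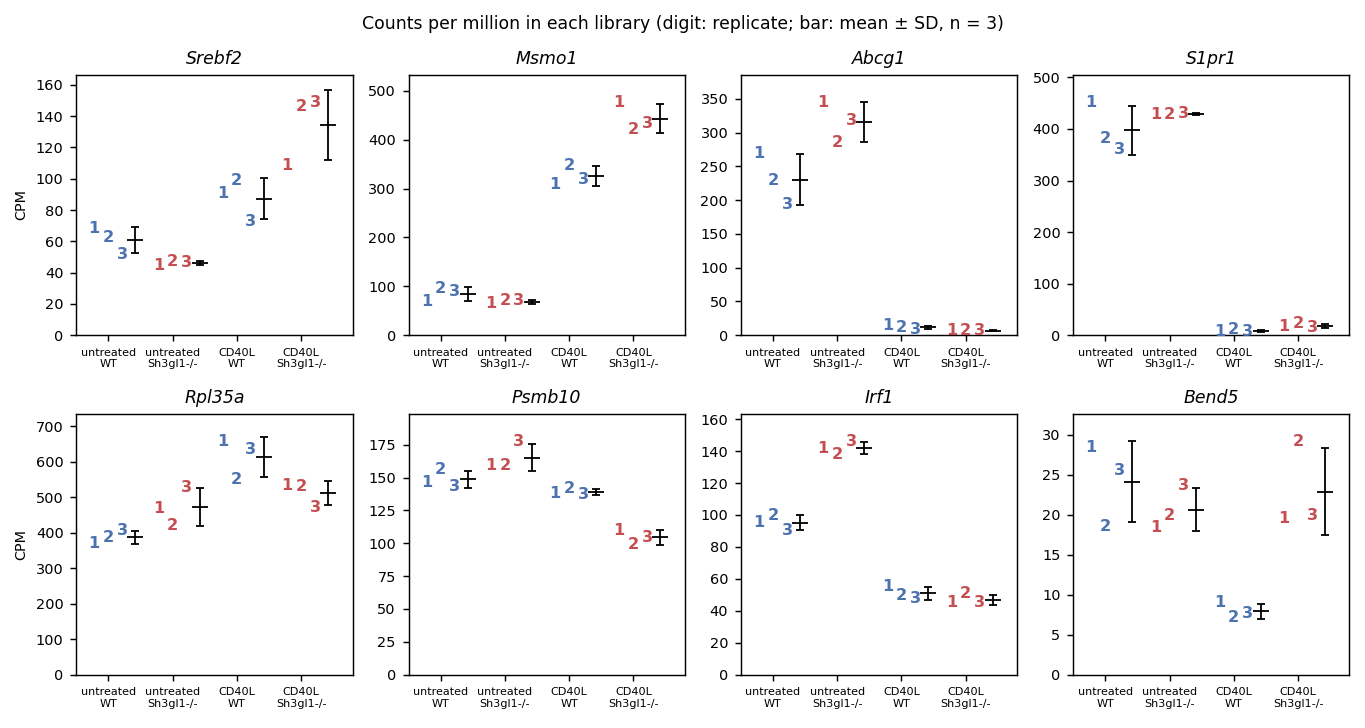
CPM of 8 genes in the 12 libraries, with replicate numbers as digits (blue WT, red *Sh3gl1*-/-) and the mean ± SD of 3 libraries as bars. The *Sh3gl1*-/- libraries of *Srebf2* lie at 44.5 to 47.4 CPM before and 109 to 149 CPM after CD40L, and those of *Irf1* at 138 to 146 CPM before and 45 to 50.5 CPM after it.

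Among genes of clathrin-mediated endocytosis and membrane curvature, 8 of 50 were higher (16%) and 0 lower, with a median difference of 0.16 and 35 above 0. The study proposes that endophilin A2 itself works in B cells mainly outside the clathrin route. The list stood at -0.23, -0.29 and -0.42 in cultured WT and at -0.25, -0.13 and -0.05 in cultured *Sh3gl1*-/- libraries, which overlapped. Of 16 BAR-domain and FCH-domain proteins 4 were higher, with a median of 0.31, and of 8 clathrin and AP2 subunits 2 were higher, with a median of 0.08. *Arhgap17*, a BAR-domain GTPase-activating protein, had 86.8, 101 and 72.4 CPM in cultured WT and 140, 157 and 146 CPM in cultured *Sh3gl1*-/- libraries, from 138 to 163 and 171 to 176 CPM. It fell with CD40L in WT cells, and its difference was 0.55 (SE 0.17, adjusted p = 0.465, edgeR). *Fcho1*, which nucleates coated pits, had 0.78 (SE 0.25) and *Pacsin1*, an F-BAR protein, 0.77 (SE 0.27), with adjusted p = 0.465 and 0.484 in edgeR. *Ap2a1*, a subunit of the AP2 adaptor, had 1.52 (SE 0.49, adjusted p = 0.465, edgeR) at 2.1 to 6.84 CPM. It had 77, 42 and 28 counts in the untreated WT libraries, and without untreated WT replicate 1 its difference was 1.08. The clathrin heavy chain *Cltc* had 0.05 (SE 0.20) and the dynamin *Dnm2* 0.10 (SE 0.23). The number of higher members was between 6 and 10 over the libraries left out.

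Of the 17 subunits of the V-ATPase, which acidifies endosomes, 3 were higher (17.6%) with a median of 0.03. *Atp6v0a1* had 27.2, 35.6 and 27.1 CPM in cultured WT and 53.6, 59.1 and 64.2 CPM in cultured *Sh3gl1*-/- libraries, from 47.7 to 57.9 and 51 to 74 CPM. It fell in WT cells and had a change of -0.02 in *Sh3gl1*-/- cells, and the difference was 0.79 (SE 0.22, adjusted p = 0.465, edgeR). The lists of Rab, lysosome, autophagy and phosphoinositide genes had 11 higher and 2 lower members among 174 tested, with medians from 0.02 to 0.14. The 37 iron genes had 2 higher and 2 lower members and a median of -0.001.

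In the signalling arm next to CD40, the 16 TRAF and NIK control genes had 0 members past the unadjusted level in either direction and a median of -0.04. Of 18 NF-kB subunits and inhibitors 3 were higher (16.7%) and 0 lower, with a median of 0.08. *Rel*, the c-Rel subunit, had 222, 244 and 197 CPM in cultured WT and 267, 261 and 298 CPM in cultured *Sh3gl1*-/- libraries, and 261 to 289 and 232 to 257 CPM untreated. The WT libraries were the higher ones before and the lower ones after culture. Its difference was 0.49 (SE 0.14, adjusted p = 0.465, edgeR). The inhibitors *Nfkbib* and *Nfkbia* rose in both genotypes, with differences of 0.69 (SE 0.29) and 0.62 (SE 0.29) and adjusted p = 0.526 and 0.563 in edgeR. Without untreated WT replicate 1, untreated *Sh3gl1*-/- replicate 2, cultured WT replicate 1 or cultured WT replicate 3, 1 higher member was left.

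The list of BAFF and APRIL receptors and the survival genes gave few calls. Of 6 genes in the first list 2 were higher, and the median was 0.22. Of these 2, 1 was *Bcl10*, which links antigen receptors to NF-kB and is not a BAFF or APRIL receptor. Its difference was 0.47 (SE 0.15, adjusted p = 0.47, edgeR). *Tnfrsf13b*, which encodes the receptor TACI, fell in WT cells from 505, 447 and 382 CPM to 248, 366 and 256 CPM. In *Sh3gl1*-/- cells it had 374, 387 and 349 CPM before and 444, 396 and 390 CPM after CD40L, and the difference was 0.77 (SE 0.20, adjusted p = 0.465, edgeR). Of 23 genes of the BCL2 family and death receptors 4 were lower and 1 higher, with a median of -0.04 that ran from -0.13 to 0.01 over the libraries left out. The lower members numbered 2 without untreated WT replicate 1, cultured WT replicate 3 or cultured *Sh3gl1*-/- replicate 2 and 6 without cultured WT replicate 2. *Fas*, a death receptor, and *Bid*, which links such receptors to mitochondria, had -0.89 (SE 0.28) and -0.46 (SE 0.19), and the survival gene *Bcl2* had 0.47 (SE 0.16), with adjusted p = 0.465, 0.523 and 0.476 in edgeR. *Bcl2a1a* had -2.11 (SE 0.70, adjusted p = 0.472, edgeR) and is uncertain, since RSEM divides reads among its near-identical paralogs.

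Interferon-induced genes had a median log2 response of -1.14 in WT and -1.45 in *Sh3gl1*-/- cells. Of 54 genes 8 were lower (14.8%) and 1 higher, with a median difference of -0.11 that ran from -0.31 without cultured WT replicate 1 to 0.10 without cultured WT replicate 3. Without the latter 4 members were lower and 3 higher, and 5 were lower without untreated WT replicate 1 or cultured *Sh3gl1*-/- replicate 2. *Irf1* (ENSMUSG00000018899, chromosome 11, 53770014 to 53778374), a transcription factor induced by interferon, had 142, 138 and 146 CPM in untreated *Sh3gl1*-/- libraries. Untreated WT libraries had 95, 99.8 and 90.5 CPM. After CD40L it had 55.3, 49.3 and 47.8 CPM in WT and 45, 50.5 and 45 CPM in *Sh3gl1*-/- libraries, so that the groups were apart before culture and overlapped after it. The difference was -0.70 (SE 0.14, adjusted p = 0.311 in edgeR and 0.000824 in DESeq2). The GTPases *Igtp* and *Ifi47* had -0.67 (SE 0.20) and -0.71 (SE 0.22), both with adjusted p = 0.465 in edgeR. Of 21 MHC class I presentation genes 2 were lower and 1 higher, with a median of -0.23. The lower members numbered 1 to 5 over the libraries left out, with 5 without cultured WT replicate 1, and the difference between the responses of the list level was -0.05. The higher member was *H2-D1*, a classical class I heavy chain, with 0.83 (SE 0.33, adjusted p = 0.511, edgeR), whose reads can be shared with its paralogs.

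*Serpina3g*, a serine protease inhibitor, also had its genotypes apart before culture and overlapping after it. It had 82.3, 78 and 59.4 CPM in untreated WT and 224, 153 and 210 CPM in untreated *Sh3gl1*-/- libraries, and 35 to 37.1 and 35.2 to 48.7 CPM after culture. Its difference was -1.15 (SE 0.24, adjusted p = 0.315 in edgeR and 0.00333 in DESeq2), and its level is uncertain because close paralogs share its reads. Of 23 inhibitory and Fc receptors 5 were lower (21.7%), with a median of -0.17, and between 1 without cultured *Sh3gl1*-/- replicate 2 and 5 over the libraries left out. As a level the list did not show this, with -0.36, -0.38 and -0.46 in cultured WT and -0.28, -0.06 and -0.19 in cultured *Sh3gl1*-/- libraries, all above WT, and a difference between the responses of 0.001. *Btla* had 670, 712 and 694 CPM in untreated *Sh3gl1*-/- and 487, 554 and 602 CPM in untreated WT libraries, and the groups overlapped after culture. Its difference was -0.40 (SE 0.16, adjusted p = 0.517, edgeR). *Cd5* had -1.11 (SE 0.40, adjusted p = 0.484, edgeR), and T cells express it too. The T cell marker list, which does not hold *Cd5*, was higher in untreated *Sh3gl1*-/- than in untreated WT libraries (403 to 511 against 270 to 325 CPM), and its part in this value was not tested. Of 15 transitional and marginal-zone markers 4 were lower (26.7%), but the list median was only -0.04, with 9 below 0. The lower members numbered 3 without untreated WT replicate 3 and 6 without cultured WT replicate 3. They included *Cd93* with -1.0025 (SE 0.34, adjusted p = 0.472, edgeR) and *Vpreb3* with -0.90 (SE 0.36, adjusted p = 0.517, edgeR).

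Among genes of the resting state, of 23 KLF, FOXO and quiescence factors 3 were higher (13%) and 0 lower, with a median of 0.14. *S1pr1*, the receptor by which lymphocytes leave lymphoid organs, fell from 451, 382 and 361 CPM to 8.17, 11 and 6.41 CPM in WT cells. In *Sh3gl1*-/- cells it fell from 428, 427 and 431 CPM to 16.1, 22.1 and 15.1 CPM. The untreated groups overlapped, and all cultured *Sh3gl1*-/- libraries were above all cultured WT libraries. The log2 response was -5.54 in WT and -4.60 in *Sh3gl1*-/- cells, and the difference was 0.95 (SE 0.25, adjusted p = 0.465, edgeR). *Klf3* had 0.48 (SE 0.15, adjusted p = 0.465, edgeR).

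Of 32 immediate early genes 4 were higher (12.5%) and 0 lower, with a median of 0.26, and the higher members were between 1 without untreated *Sh3gl1*-/- replicate 2 and 6 without cultured WT replicate 2. *Junb* and *Gadd45b* had differences of 1.56 (SE 0.56) and 1.01 (SE 0.40), with adjusted p = 0.484 and 0.511 in edgeR. *Junb* had 58, 23 and 26 counts in the untreated WT libraries, and without untreated WT replicate 1 its difference was 1.08. Of 35 transcription factors of B cell identity and fate 4 were higher (11.4%) and 1 lower. Without untreated WT replicate 3, cultured WT replicate 3 or cultured *Sh3gl1*-/- replicate 2 or 3, 2 were higher, and without cultured *Sh3gl1*-/- replicate 1, 3 were lower. *Ebf1*, which maintains B cell identity, fell to 261, 248 and 190 CPM in cultured WT and to 275, 367 and 273 CPM in cultured *Sh3gl1*-/- libraries, a difference of 0.47 (SE 0.19, adjusted p = 0.511, edgeR). *Id2*, an inhibitor of E proteins, had -0.81 (SE 0.24, adjusted p = 0.465, edgeR). Of 24 Toll-like receptors and partners 3 were higher and 1 lower, and *Cd180*, a B cell homologue of the Toll-like receptors, had 150, 156 and 138 CPM in cultured WT and 203, 227 and 238 CPM in cultured *Sh3gl1*-/- libraries, a difference of 0.41 (SE 0.13, adjusted p = 0.465, edgeR).

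The gene with the lowest p over the table was *Bend5*, which encodes a BEN-domain protein. It had 28.4, 18.6 and 25.5 CPM in untreated WT and 18.4, 19.9 and 23.6 CPM in untreated *Sh3gl1*-/- libraries. It fell to 8.98, 7.19 and 7.61 CPM in cultured WT but had 19.6, 29.1 and 19.9 CPM in cultured *Sh3gl1*-/- libraries. The difference was 1.75 (SE 0.29, adjusted p = 0.311 in edgeR and 0.000134 in DESeq2), and *Bend5* lies within another gene, *Agbl4*, on the same strand. *Flywch1*, *Rnls*, *Akap8l* and *Atg16l2*, a paralog of the autophagy gene *Atg16l1*, had differences of 2.76 (SE 0.53), 1.75 (SE 0.35), 0.87 (SE 0.19) and 0.66 (SE 0.14), with adjusted p between 0.311 and 0.374 in edgeR. *Ifit1bl1*, of the interferon-induced IFIT family, fell from 58.7 to 67 CPM to at most 0.27 CPM in WT and from 47.3 to 57.3 CPM to between 0.477 and 1.45 CPM in *Sh3gl1*-/- libraries. The gene models Gm28042, which spans *Jmjd7* and *Pla2g4b*, and Gm43788, which lies within *Med13l*, were also among the 10 lowest p on the higher side, and reads cannot be assigned to them with certainty.

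On the lower side, 2 of the 10 genes with the lowest p encode proteins of red cells. *Rhd*, which encodes a blood group protein of red cells, had 0.15 to 1.05 CPM in untreated WT and 2.54 to 5.26 CPM in untreated *Sh3gl1*-/- libraries, at most 0.261 CPM in cultured WT and 0 in all cultured *Sh3gl1*-/- libraries. *Smim1*, another red cell protein, had at most 0.0619 CPM in untreated WT and 0.825 to 1.94 CPM in untreated *Sh3gl1*-/- libraries, at most 0.675 CPM in cultured WT and 0 in all cultured *Sh3gl1*-/- libraries. *Tst*, a mitochondrial sulfurtransferase, had a difference of -2.67 (SE 0.60, adjusted p = 0.465, edgeR) at 0.45 to 2.88 CPM. The 11 erythroid and platelet markers had a median difference of -1.46, which turned to 0.65 without cultured WT replicate 2, and the 13 monocyte, macrophage and dendritic markers one of -0.48, which turned to 0.19 without cultured WT replicate 3.

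**Figure D4:**
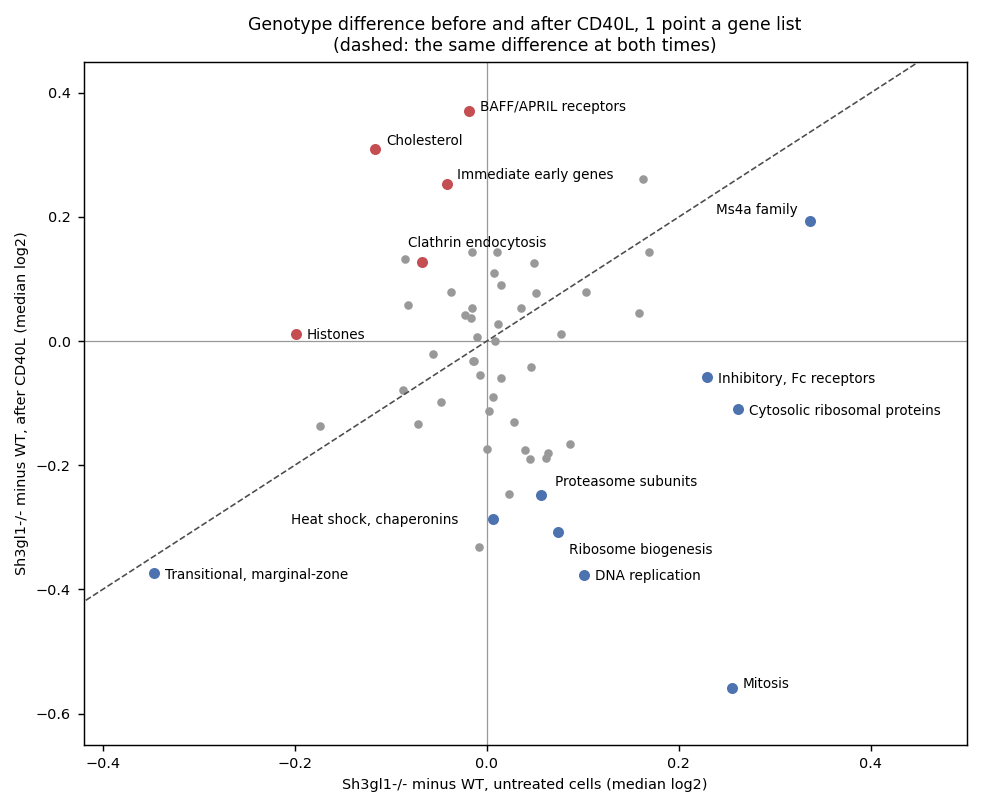
Genotype difference (*Sh3gl1*-/- minus WT, median log2) of each gene list in untreated cells on the horizontal axis and after CD40L on the vertical axis, with markers of other cell types left out. The dashed line is where the difference is the same at both times. The vertical distance from it need not equal the median difference in response, because medians do not subtract. For BAFF and APRIL receptors, at -0.02 and 0.37, that median was 0.22. Ribosomal proteins (0.26 and -0.11) and inhibitory receptors (0.23 and -0.06) lie to the right of 0, and cholesterol genes (-0.12 and 0.31) above the line.

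The other 27 of the 61 lists, among them chemokine and cytokine receptors, SOCS proteins, MHC class II, BCR signalling, fatty acid synthesis, glycolysis, amino acid transport, hypoxia, p53 targets, actin regulators and integrins, had medians between -0.18 and 0.18. For the 15 costimulatory ligands and receptors the median was -0.23 with 1 lower member, *Pdcd1lg2*, at -0.55 (SE 0.23, adjusted p = 0.526, edgeR). In the BCR signalling list 37 of 47 genes lay above 0 with a median of 0.13, and 3 were higher.

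Over the whole table the median difference ran against the direction of the response. Genes were divided by their average response to CD40L over both genotypes, where a gene was placed in a class at an adjusted p under 0.05 in edgeR (28.8% of genes rose and 31.3% fell). The 435 genes that rose by over 2 on the log2 scale had a median difference of -0.25, the 1010 that rose by 1 to 2 of -0.22 and the 2719 that rose by 0 to 1 of -0.15. The 961 genes that fell by over 2 had 0.18, the 1215 that fell by 1 to 2 had 0.14 and the 2351 that fell by 0 to 1 had 0.09. At an unadjusted p under 0.05, 8.51% of the genes that rose by over 2 were lower, 11.8% of those that rose by 1 to 2 and 11.1% of those that rose by 0 to 1, against 4.41% of all genes. In the same classes 5.29%, 5.25% and 4.08% were higher, against 4.43% of all genes. Of the genes that fell by over 2, 1 to 2 and 0 to 1, 7.28%, 5.93% and 5.32% were higher, nearer to that share. Without cultured WT replicate 3 the medians were -0.09, -0.07 and -0.04 for genes that rose by 0 to 1, 1 to 2 and over 2, and 0.06, 0.07 and 0.17 for genes that fell by as much.

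**Figure D5:**
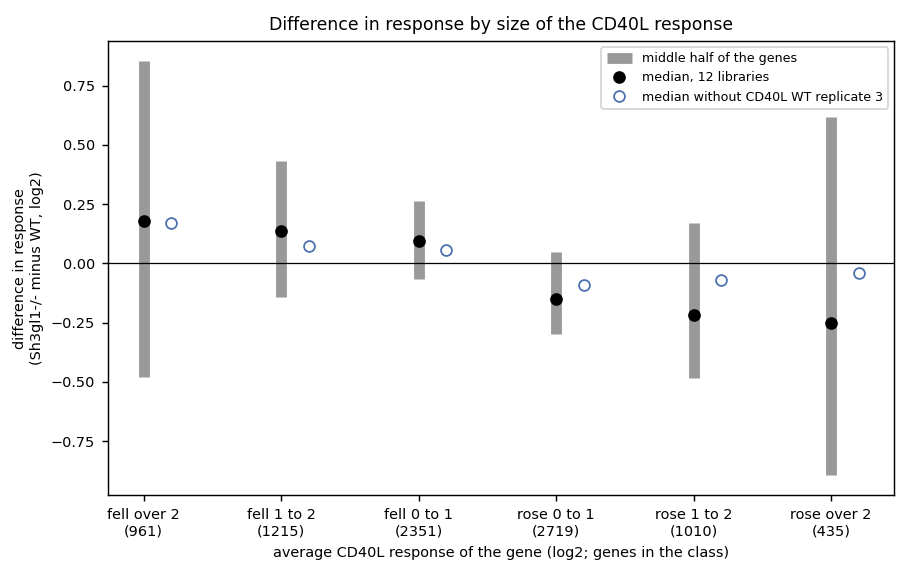
Difference in response (log2, *Sh3gl1*-/- minus WT) for genes grouped by their average CD40L response, with the number of genes in parentheses. Filled points are medians over 12 libraries, grey bars the middle 50% of genes and open points the medians without cultured WT replicate 3. Filled points descend from 0.18 to -0.25, and the open points for rising genes stay between -0.09 and -0.04.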

How the data were processed

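RNA from sorted follicular B cells was sequenced in 3 mice per group. The members and gene lists were chosen with earlier results of these data known. The submitters' processing notes name cutadapt 1.9.1, STAR 2.5.2a and RSEM 1.3.0 on GRCm38, whereas the study's methods describe another library kit and aligner. Whether counting used strand is not given in the sources used here. The authors deposited RSEM expected counts for 51912 genes, which are estimated counts that need not be whole. The deposited table also holds TPM and FPKM columns made by the authors, which were not tested here. Of its value columns 0 could not be assigned to a sample.

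Expected counts were rounded and scaled by TMM, genes were filtered with filterByExpr, and the interaction was tested with edgeR 4.0.16 (quasi-likelihood, Benjamini-Hochberg adjustment over all genes, R 4.3.3). Two-sided p-values measure the spread between the mice within each group, with the 12 libraries taken as independent. CPM are the rounded expected counts scaled to library size, and log2 CPM used a prior count of 2. Alternatives were DESeq2 1.42.0, limma-voom 3.58.1, other scaling, filters, samples and a replicate block. The 12 libraries held 12415851 to 18366011 expected counts, and 3 counts corresponded to 0.163 to 0.242 CPM, which covers counting error only. The code was tested on simulated data.

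Named genes were the 10 with the lowest interaction p in each direction over all genes, up to 4 members in each direction with the lowest p under 0.05 for each list described on its own, and *Sh3gl1*, *Cd40* and *Cd80*. Immunoglobulin and T cell receptor segments and pseudogenes were left out of the first set. A list of at least 5 tested genes was described on its own where at least 3 members were at an unadjusted p under 0.05 in 1 direction, with a share at least 2 times that of all genes, or where its median was over 0.2 in size. This held for 34 of 61 lists. Promoter sequences are from RefSeq (GRCm38.p6). Some genes that met the rule are not reported here.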

Additional observations from a re-analysis of the deposited data

Results flagged for a closer look

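In the following genes every *Sh3gl1*-/- library moved one way with CD40L and every WT library the other, each relative to the untreated mean of its genotype. The differences in response were 0.87 for *Akap8l* (adjusted p = 0.374, edgeR), 0.486 for *Rel* (0.465), 0.768 for *Tnfrsf13b* (0.465), 0.715 for *Tcf3* (0.511) and 1.519 for *Ap2a1* (0.465). They were 0.467 for *Bcl10*, which links antigen receptors to NF-kB (adjusted p = 0.47, edgeR), and 0.683 for *Ly96*, a partner of the LPS receptor (0.543). On the lower side they were -2.11 for *Bcl2a1a* (adjusted p = 0.472, edgeR), -0.714 for *Ifi47* (0.465), -0.285 for *B2m*, the light chain of MHC class I (0.553), and -0.468 for *Nol8* (0.465). None of these passed the adjusted threshold in edgeR, where 1278 genes were at an unadjusted p under 0.05. All of them were among the genes named for a low p of this same difference, so the opposed movement is not separate support. No share of all genes with this pattern is given. The V-ATPase list moved in the same opposed way, with a difference of 0.119 between the responses of its library medians, and that difference was not tested.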

How the results depend on the processing

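DESeq2 called 37 genes and a fit on all genes with at least 1 count called 210 of 26213, of which 27 were among the 37. That fit had 1008 higher genes at an unadjusted p under 0.05, and leaving out both cultured libraries numbered 3, an alternative added after the data had been seen, gave 391 lower ones. The cause was not tested. limma-voom, RLE scaling, the stricter filter, all 18 libraries and the neutrophil covariate gave 0 calls each. With each library left out, calls ranged from 0 to 1, higher genes from 479 to 971 and lower genes from 399 to 857. In the same way the class medians ranged from 0.0561 to 0.1591, 0.0725 to 0.2064 and 0.1052 to 0.2749 for genes that fell by 0 to 1, 1 to 2 and over 2, and from -0.1696 to -0.0919, -0.2575 to -0.0683 and -0.3155 to -0.0398 for those that rose by as much. List medians ranged from 0.2604 to 0.5005 for cholesterol, 0.1019 to 0.2381 for clathrin, -0.3141 to -0.2001 for the proteasome, -0.9892 to -0.1559 for mitosis, -1.9222 to 0.6496 for erythroid and -0.9655 to 0.1934 for macrophage markers. The last 2 reversed, without cultured WT replicates 2 and 3.

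Same-numbered untreated and cultured libraries correlated by 0.158, 0.149 and 0.243 in WT and by 0.134, 0.089 and 0.035 in *Sh3gl1*-/- mice, each above its best other number, but not all over 0.1, so the numbers were not taken to pair the samples. A legend of the study counts 3 mice of each genotype, so untreated and cultured libraries may come from the same mice, which is not settled. The main fit took the 12 libraries as independent. With a replicate block 0 genes were called and 1216 were at an unadjusted p under 0.05, and with a replicate block within genotype 0 and 1172. Depth limits genes near 3 counts, and the spread between 3 mice limits the rest.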
